A study of Mus musculus with 6 samples.

Results

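Of the 41345 transcript clusters measured on the arrays, 14308 had a blank gene symbol in the deposited comparison table, and the account below describes these rows against the 27037 rows that carried a symbol. A transcript cluster is a group of probes that an array design treats as one transcribed locus. Membership used the symbol cell alone and no measured value. None of the 14308 rows had an entry in the gene assignment, RefSeq or gene ontology columns, and 1 had a pathway entry.

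The study compared gene expression with and without a mutant p53 in mouse oviductal epithelial cells (MOE), a murine model of the fallopian tube lining. The p53 R273H group (3 arrays) came from MOE cells transfected with a plasmid encoding p53 R273H, a substitution in the DNA-binding domain of this tumour suppressor, and the empty vector group (3 arrays) from MOE cells given pCMV-Neo. Both lines went through antibiotic selection and clonogenic isolation, shared a medium with serum, growth factors, insulin and estradiol, and gave RNA at successive passages. The labels do not say how many clones each line came from, so the effect of the plasmid and of the isolated line cannot be told apart, and the p-values measure the spread between passages.

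Whole-transcript arrays carry, beside annotated genes, loci known only from computational or cDNA evidence and control features, some of them in exons or introns of annotated genes. Small nucleolar RNAs (snoRNAs) guide chemical modification of ribosomal RNA and are cut from introns of host genes, and microRNAs pair with messenger RNAs through a short seed and reduce their output. The mitochondrial genome is transcribed as long polycistronic RNAs from both strands, from which messenger, ribosomal and transfer RNAs are cut. The deposited table does not mark which rows are controls or what any symbol-less row represents, and no gene name or role is given to one here.

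On all rows the arrays correlated at r = 0.983 to 0.987 within a group and 0.963 to 0.966 between groups. The labelled tissue was checked with 6 marker lists against the median row mean of 4.53 on the log2 scale. Of 8 epithelial markers, 6 lay above it in both groups (summed level 54.9 in p53 R273H and 56.0 in empty vector cells), with Epcam and Cldn7 below it in both. Secretory markers lay above it for 4 of 4 in p53 R273H and 3 of 4 in empty vector cells (sums 29.3 and 28.6), and ciliated markers for 2 of 2 in both (10.6 and 10.5). Dnah5, also planned for the ciliated list, was not included. Fibroblast markers lay above it for 3 of 3 in p53 R273H and 2 of 3 in empty vector cells (19.9 and 13.4), with Dcn at 8.02 in p53 R273H and 3.32 in empty vector cells. Endothelial markers lay above it for 2 of 3 in both groups (13.5 and 13.2), and leukocyte markers for 1 of 3 in both (15.7 and 15.7), with Ptprc and Cd3e below it. The epithelial, secretory, ciliated and leukocyte sums hide markers that differed in opposite directions at a limma adjusted p under 0.05. Krt7 averaged 9.78 in p53 R273H and 7.98 in empty vector cells. In that order Krt8 averaged 9.24 and 10.42, and Krt19 6.31 and 8.82. Of secretory markers, Esr1 averaged 8.13 and 4.52, Wt1 5.73 and 7.66, and Ovgp1 4.93 and 6.21. Of ciliated markers, Foxj1 averaged 4.99 and 5.86 and Tekt2 5.64 and 4.61. Of leukocyte markers, Ptprc averaged 4.10 and 3.50 and Cd68 7.32 and 8.05. The fibroblast markers Pdgfra (5.82 and 4.72) and Col1a1 (6.07 and 5.35) were higher in p53 R273H cells at that threshold, as was Dcn. The part of these lists in the results below was not tested.

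In ID order the symbol-less rows fell into 3 sets. A leading block of 5333 rows (17200001 to 17210852) came before the first row with a symbol, Lypla1. Another 8106 rows (17210883 to 17548993) were interspersed among rows with symbols, and a trailing block of 869 rows (17549006 to 17551169) came after all rows with a symbol. ID order tracked the genome for the rows that could be placed. RefSeq gave a chromosome for 25146 of the 27037 rows with a symbol, 97.8% of consecutive placed rows shared a chromosome, and 98.2% of those pairs stood in ascending order of start. Of 24548 placed rows whose neighbours on either side shared a chromosome, 99.2% lay on that chromosome. Of the interspersed rows, 7919 stood between rows of 1 chromosome. Neighbours below are therefore neighbours in ID order, and distances in bases are not known.

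Rows without a symbol were dimmer than rows with one. Their median level was 3.89 (10th percentile 2.27, 90th percentile 7.48) against 4.92 for rows with a symbol, in log2 units. The higher of the group means was above 4.53 in 5671 of them, or 39.6%, against 59.7% of rows with a symbol. The median was 3.92 in the leading block, 3.81 among the interspersed rows and 4.71 in the trailing block, where 53.3% of rows were above 4.53. Of the interspersed rows, 9.61% had a mean level above 9, against 0.281% of the leading block and 8.09% of rows with a symbol. The median within-group standard deviation was also larger, at 0.267 against 0.156 for rows with a symbol.

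**Figure D1:**
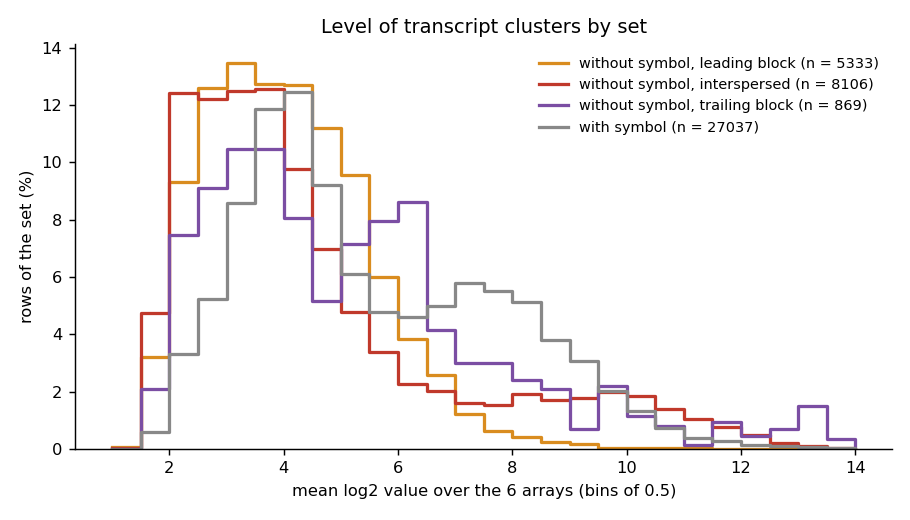
Share of rows (%) by mean log2 value over the 6 arrays, in bins of 0.5, for the 3 sets of rows without a symbol and for rows with one. The leading block has almost no rows above 9, whereas the interspersed rows and the trailing block have a tail that reaches 13.6 and 13.9.

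In p53 R273H cells relative to empty vector cells, 430 symbol-less rows rose and 733 fell at a limma adjusted p under 0.05. The adjustment (Benjamini-Hochberg) covered all 41345 rows, of which 6.98% rose and 7.75% fell. At a difference of at least 2-fold, 143 rose and 347 fell, where 1.96% and 2.82% of all rows did. In either direction 8.13% were called, against 14.7% of all rows and 18.2% of rows with a symbol. The direction of this gap changed with level. Under a level of 3, 1.77% of symbol-less rows and 1.22% of rows with a symbol were called, and from 3 to 4 the shares were 4.04% and 2.54%. The leading block held the highest shares, at 3.05% under 3 and 6.51% from 3 to 4. Interspersed rows were called at 1.13% and 2.36%, below rows with a symbol, and trailing rows at 0.617% and 3.85%. From 4 upward fewer symbol-less rows were called, at 6.26% against 8.39% from 4 to 5, 14.4% against 27.6% from 5 to 7, 26.3% against 35.4% from 7 to 9, and 25.9% against 36.9% above 9. In the authors' deposited table, 277 of the symbol-less rows were higher and 410 lower at a step-up p-value under 0.05. The deposited p-values match a fit without limma's moderation of the variance, so these counts and the 430 and 733 come from different tests.

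The 3 sets differed in balance. The leading block held 74 rises and 315 falls, or 1.39% and 5.91% of its rows. The interspersed rows held 307 and 370 (3.79% and 4.56%), and the trailing block 49 and 48 (5.64% and 5.52%). Every one of these shares was below that of all rows, at 6.98% for rises and 7.75% for falls. In the leading block 3227 rows had a negative and 2106 a positive difference, with a median of −0.12. Its array medians were 3.92, 3.77 and 3.89 in p53 R273H and 3.99, 4.08 and 4.11 in empty vector cells, so the groups did not overlap. Over the interspersed rows the medians were 3.83, 3.84 and 3.81 in p53 R273H and 3.84, 3.84 and 3.82 in empty vector cells, and these overlap. The leading block's median difference lay between −0.14 and −0.17 in every level bin from 3 to 9, whereas rows with a symbol had medians from −0.02 to 0.03 there.

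The largest rise belonged to row 17384979. It read 9.67, 9.61 and 9.64 in p53 R273H cells, against 3.91, 3.95 and 3.81 in empty vector cells. The groups lay far apart with almost no spread inside either, a difference of 5.75 ± 0.09 (SE) or 53.8-fold (limma adjusted p = 4.41e-06). Permuting the array labels of this row (exact, two-sided) gave p = 0.1, the smallest that 3 against 3 arrays allow. Its neighbours with symbols differed far less. Zeb2, a zinc-finger repressor of epithelial genes, differed by −0.04 ± 0.11 and Orc4, a subunit of the origin recognition complex, by 0.52 ± 0.10 (limma adjusted p = 0.876 and 0.0177).

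Row 17514653 read 7.51, 7.57 and 7.71 in p53 R273H cells and 3.32, 2.44 and 3.00 in empty vector cells. It was low in every empty vector array and differed by 4.68 ± 0.22, or 25.6-fold (limma adjusted p = 5.39e-05). The row before it is Pgr, the progesterone receptor and a classical estrogen target, which averaged 9.67 ± 0.04 in p53 R273H cells and 3.48 ± 0.17 in empty vector cells (SD, n = 3 each). Pgr rose by 6.19, while the row after, Gm16833, differed by −0.08.

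A further rise shared its direction with both neighbours. Row 17434705 read 7.06, 7.01 and 6.68 in p53 R273H and 4.26, 4.17 and 3.93 in empty vector cells, with a difference of 2.79 ± 0.15 (limma adjusted p = 8.31e-05). The groups did not overlap. On chromosome 5, it stands between Speer1-ps1, which rose by 1.06, and 4933402N22Rik, which rose by 3.29. Row 17386344 read 7.002, 6.836 and 6.894 in p53 R273H and 3.931, 4.126 and 4.613 in empty vector cells and rose by 2.69. The row before, 1500002O10Rik, rose by 1.09, while Tlk1, a chromatin-associated kinase on the other side, differed by −0.32 and did not pass.

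Row 17515515 followed Gm10701, which rose by 3.65. It read 6.160, 5.996 and 5.942 in p53 R273H and 3.944, 3.971 and 2.571 in empty vector cells (2.54 ± 0.37, limma adjusted p = 0.0054). One empty vector array was well below the other 2, and the groups did not overlap. Rows 17416005 and 17445607 rose by 2.12 and 1.94 with neighbours that did not pass. The first stands after Lepr, the leptin receptor, which differed by 0.13, and the second after Grm3, a metabotropic glutamate receptor, which differed by −0.14. The remaining 3 of the 10 largest rises lay in the long runs after Fryl and Gbf1 described below.

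Of the 10 largest falls, 5 were in the trailing block, 4 among the interspersed rows and 1 in the leading block. Row 17549894 read 4.63, 4.51 and 4.12 in p53 R273H cells, against 8.54, 8.31 and 8.44 in empty vector cells. The groups lay apart by 4.01, so the row fell 16.1-fold in p53 R273H cells (SE 0.16, limma adjusted p = 2.91e-05). Rows 17549866 and 17549874 held identical values, at 4.05, 4.15 and 3.55 in p53 R273H and 7.92, 7.76 and 7.82 in empty vector cells, and fell by 3.92. Row 17549592 read 3.94, 4.47 and 3.46 in p53 R273H and 7.80, 7.63 and 7.71 in empty vector cells and fell by 3.75. In the p53 R273H group these rows lay near or below the median row mean of 4.53, and in the empty vector group far above it.

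Another trailing row, 17549974, held the same values as interspersed row 17253476, at 2.23, 3.86 and 4.10 in p53 R273H and 7.25, 7.13 and 7.56 in empty vector cells. One p53 R273H array was lower than the other 2, and both rows fell by 3.92 ± 0.48 (limma adjusted p = 0.00245). The interspersed copy stands on chromosome 11 between Tlcd1 and Rab34, a small GTPase of ciliogenesis, which differed by 0.14 and 0.23 and did not pass. In the leading block the largest fall was row 17204125, at 3.35, 3.44 and 3.55 in p53 R273H and 6.31, 6.07 and 6.74 in empty vector cells. It fell by 2.93 ± 0.18 (limma adjusted p = 0.000151), with no overlap. The 5 next largest falls of the block ran from 2.12 to 2.22.

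**Figure D2:**
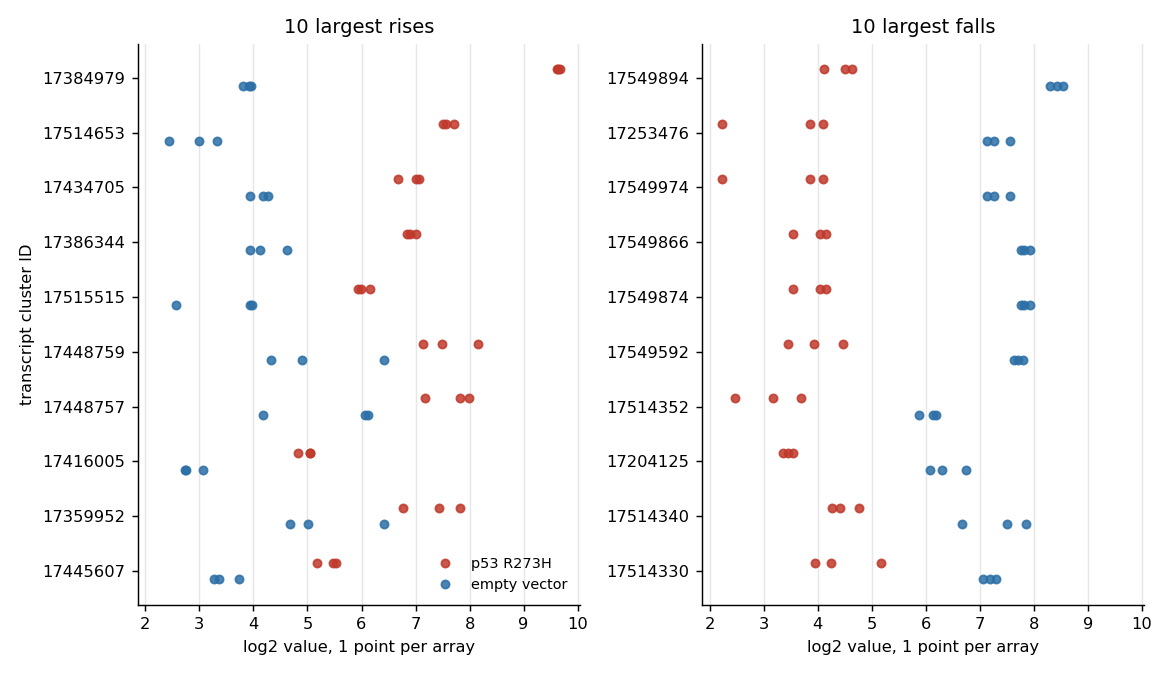
Log2 value on each array of the 10 largest rises and the 10 largest falls that passed the test without overlap, with p53 R273H above empty vector on each line. Row 17384979 lies near 9.64 on the 3 p53 R273H arrays and near 3.89 on the 3 empty vector arrays, and rows 17448759, 17448757 and 17359952 have the widest spread.

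The brightest symbol-less rows did not pass the test. Row 17550598 read 13.90, 13.84 and 13.89 in p53 R273H and 13.85, 13.84 and 13.86 in empty vector cells, a difference of 0.02 ± 0.09 (limma adjusted p = 0.916). Rows 17550552 and 17551163, also in the trailing block, averaged 13.69 and 13.63 in p53 R273H and 13.70 and 13.66 in empty vector cells. Row 17511316, between Zfp791 and Vps35, and row 17357543, in a run after Ddb1, averaged 13.58 and 13.73 in p53 R273H and 13.54 and 13.54 in empty vector cells. All overlapped between groups. The 1 row with a pathway entry, 17395141, is listed under G protein signaling, calcium regulation in cardiac cells and smooth muscle contraction. It read 10.73, 10.52 and 10.53 in p53 R273H and 10.46, 10.40 and 10.49 in empty vector cells, a difference of 0.14 ± 0.10 (limma adjusted p = 0.469).

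Among rows beside snoRNA genes, falls were frequent and there was no rise. Of 93 symbol-less rows with a snoRNA row on either side, 26 fell, or 28.0% where 7.75% of all rows did, and 14 of them fell at least 2-fold. Their median difference was −0.23, against 0.01 over all rows. The 141 snoRNA rows that carry a symbol (Snord, Snora or Scarna) behaved alike in direction, with 74 falls, no rise and a median of −0.53. Many of the 141 were Snord116 rows that repeated the same values, with differences of −0.21 or −0.27 that did not pass. Outside the long runs described below, 78 of the 93 symbol-less rows remained and held all 26 falls.

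Row 17379873 read 6.47, 6.90 and 6.98 in p53 R273H cells, against 9.42, 9.33 and 9.31 in empty vector cells, and fell by 2.57 (limma adjusted p = 0.00013). It stands between 1500012F01Rik, which fell by 2.25, and Snord12, a C/D box snoRNA that fell by 1.87. Row 17304512 read 3.84, 4.45 and 3.49 in p53 R273H and 6.44, 6.29 and 6.53 in empty vector cells and fell by 2.49, between Snord69 (−3.27) and Snord19 (−1.77). In both rows every p53 R273H array was below every empty vector array.

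Where the other neighbour was a protein-coding gene, the row could part from it. Row 17442940 read 4.145, 4.203 and 4.302 in p53 R273H and 5.551, 5.749 and 6.011 in empty vector cells and fell by 1.55. It lies between Snora15, an H/ACA box snoRNA that fell by 2.44, and Cct6a, a subunit of the cytosolic chaperonin, which differed by 0.30.

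Row 17481682 and its snoRNA neighbour parted. It read 5.58, 5.66 and 5.38 in p53 R273H and 7.34, 7.48 and 7.46 in empty vector cells and fell by 1.89, while Snora3 before it differed by 0.07. Row 17268646 held the values of Snora21, the row just before it, at 9.607, 9.472 and 9.858 in p53 R273H and 10.836, 10.963 and 10.997 in empty vector cells. Both fell by 1.29 (limma adjusted p = 0.00113).

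**Figure D3:**
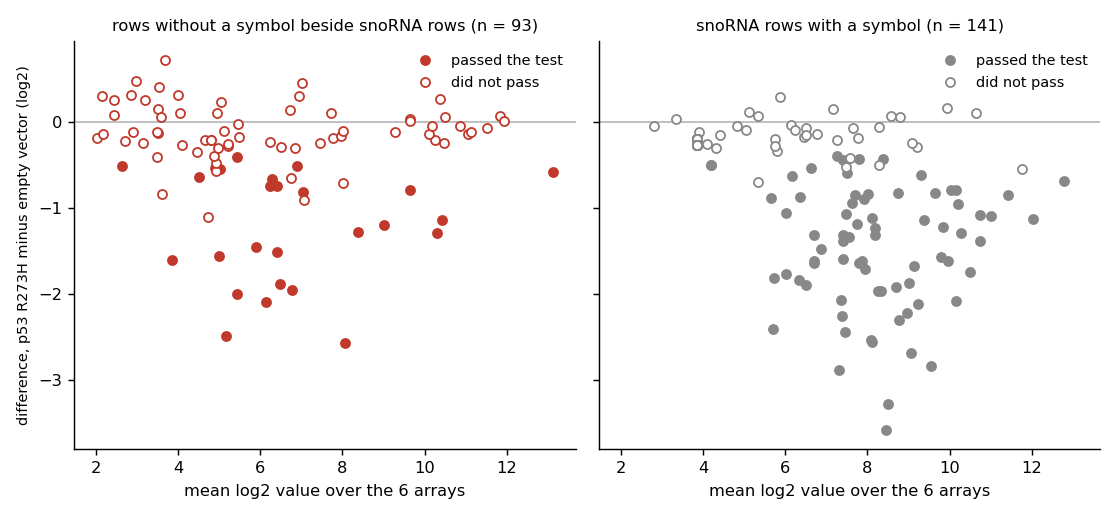
Difference between p53 R273H and empty vector cells (log2) against mean log2 value, for the 93 symbol-less rows beside snoRNA rows (left) and the 141 snoRNA rows with a symbol (right). Filled points passed the test, and all of them lie below 0 in both panels.

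Among 339 rows beside microRNA genes, 4 rose and 74 fell, or 23.0% called, against 14.7% of all rows. Most of these calls belonged to 1 long run after Huwe1. Outside such runs 235 rows remained, of which 2 rose and 12 fell (5.96% called). Their median difference was 0.01 and their median level 3.43. The 586 microRNA rows with a symbol had 9 rises, 14 falls (3.92% called) and a median level of 3.17. Rows flanked on both sides by other gene families were also dim. The 255 rows between immunoglobulin or T cell receptor genes had a median level of 3.33 with 1 rise and 1 fall (0.784% called). The 75 between olfactory or vomeronasal receptor genes had a median of 3.10 with 1 rise and 1 fall (2.67% called). The 7122 interspersed rows beside none of these held 292 rises and 261 falls, or 7.76% called, against 14.7% of all rows.

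In the mitochondrial stretch some symbol-less rows passed the test while none of the genes beside them did. There, 20 of them lie among 10 rows for mitochondrial genes of the respiratory chain. Of the 20, 8 rose, 1 fell and 11 did not pass, where 6.98% and 7.75% of all rows did. The 10 gene rows had mean levels from 10.99 to 13.62 and differences from −0.14 to 0.05, and none passed. The 20 symbol-less rows had a lower median level of 9.44 (5.16 to 13.54), and the highest level of any row was 13.86. The part of level in this contrast was not tested. The 13 rows strictly between ND1 and ND6 held 6 rises and no fall, with a median difference of 0.56.

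The single fall was row 17532597, before ND1, a subunit of complex I. It read 10.28, 10.14 and 10.34 in p53 R273H cells, against 12.21, 12.20 and 12.43 in empty vector cells, and fell by 2.02 ± 0.11 (limma adjusted p = 9.96e-05). The rows on either side of it did not share this. Row 17532595 averaged 13.53 in p53 R273H and 13.55 in empty vector cells, and row 17532599 averaged 12.83 in p53 R273H and 12.91 in empty vector cells. ND1 averaged 13.31 in p53 R273H and 13.38 in empty vector cells.

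The largest rises of the stretch stood between CYTB, the cytochrome b of complex III, and ND6. Row 17532639 read 8.13, 8.03 and 8.47 in p53 R273H and 6.22, 6.22 and 6.69 in empty vector cells, a rise of 1.83 ± 0.18 (limma adjusted p = 0.0011). Row 17532635 rose by 1.36 and row 17532643 by 1.22. CYTB differed by −0.14 ± 0.10 and ND6 by 0.05 ± 0.15. Of the 7 rows between these genes 4 rose, and the other 3 had positive differences that did not pass.

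**Figure D4:**
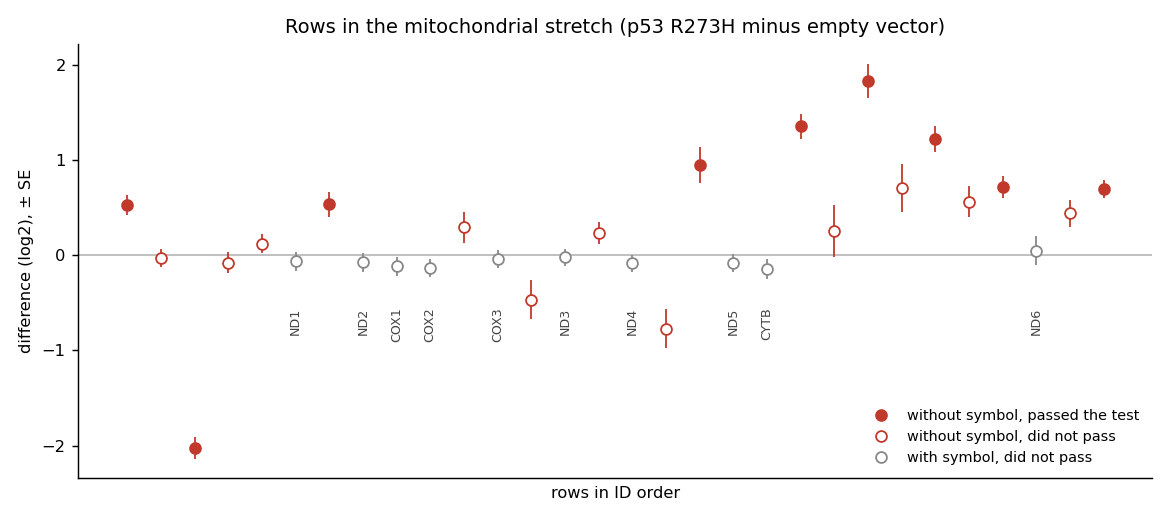
Difference between p53 R273H and empty vector cells (log2, ± SE) for 20 symbol-less rows and 10 mitochondrial gene rows in ID order, with filled points for rows that passed the test. The gene rows lie between −0.14 and 0.05, while the symbol-less rows spread from −2.02 to 1.83.

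Between the same pair of symbol rows, 91 runs of at least 8 symbol-less rows occurred. In 69 of them, with 1219 rows, IDs advanced mostly by 1. These runs were bright, with a median level of 8.95, and held 174 rises and 114 falls (23.6% called, against 14.7% of all rows). Bright rows with a symbol were called more often, at 35.4% for levels from 7 to 9 and 36.9% above 9. Across the 69 runs, the run's median difference correlated with that of the symbol row just before it at r = 0.98, and with that of the row just after it at r = 0.32. For levels r was 0.95 with the row before and −0.13 with the row after. The median gap between the run's difference and that of the row before was 0.04, against 0.23 for the row after. Both correlations describe rows of the same 6 arrays and are no test. Where the row before was called, in 19 runs, the run's median had its sign in 19. Where the row after was called, in 16 runs, the signs matched in 13.

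The run of 37 rows after Gbf1, a guanine nucleotide exchange factor of the Golgi, separated these neighbours. Its array medians were 9.26, 9.06 and 9.02 in p53 R273H and 8.12, 8.32 and 8.27 in empty vector cells. The groups did not overlap in 34 of the 37 rows, all higher in p53 R273H cells, where 16.1% of all rows were higher without overlap. Of the 37, 30 rose and none fell, and the median difference was 1.05. Gbf1 itself rose by 1.07, while Nfkb2 after the run, a subunit of NF-kappa-B, fell by 0.62.

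The longest run, 78 rows on chromosome X after Huwe1, a large E3 ubiquitin ligase, held 62 falls and 1 rise with a median of −0.87. Huwe1 fell by 0.84. After Fryl, a large furry-like protein, 62 rows had array medians of 8.04, 8.04 and 8.07 in p53 R273H and 7.10, 7.07 and 6.84 in empty vector cells. Of these 36 rose and none fell, with a median of 1.02, where Fryl rose by 0.98 and 1700025M24Rik after the run differed by −0.05.

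Shorter runs also lay close to the gene before them. After Psph, the last enzyme of serine synthesis, 11 rows had array medians of 8.13, 8.49 and 8.31 in p53 R273H and 6.66, 7.05 and 6.62 in empty vector cells, with a median difference of 1.38 against 1.16 for Psph. After Ctbp1, a transcriptional corepressor, the median of 12 rows was 1.00 and the gene's 1.01. The 10 rows after Dhrs1, a short-chain dehydrogenase, had a median of −1.09, with 8.14, 8.17 and 8.08 as array medians in p53 R273H and 9.48, 9.48 and 9.32 in empty vector cells. Dhrs1 fell by 1.00. After Itch, an E3 ubiquitin ligase, 16 of 23 rows rose with a median of 0.81 against 0.78 for the gene. After Psap, the precursor of the saposins, 12 of 16 rows fell and 1 rose, with a median of −0.44 against −0.45.

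Rows within a run did not all move as much. Differences ran from −0.86 to 2.39 after Fryl and from −1.44 to 1.69 after Huwe1. Rows 17448759 and 17448757, among the 10 largest rises, lay after Fryl. The first of them read 8.16, 7.13 and 7.49 in p53 R273H and 6.41, 4.32 and 4.89 in empty vector cells (2.39 ± 0.54, limma adjusted p = 0.0301), so its arrays spread widely within each group. Row 17359952, after Gbf1, averaged 7.34 ± 0.53 in p53 R273H and 5.37 ± 0.92 in empty vector cells (SD, n = 3 each). These 3 rows lost their calls when any of the 3 p53 R273H arrays was left out.

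**Figure D5:**
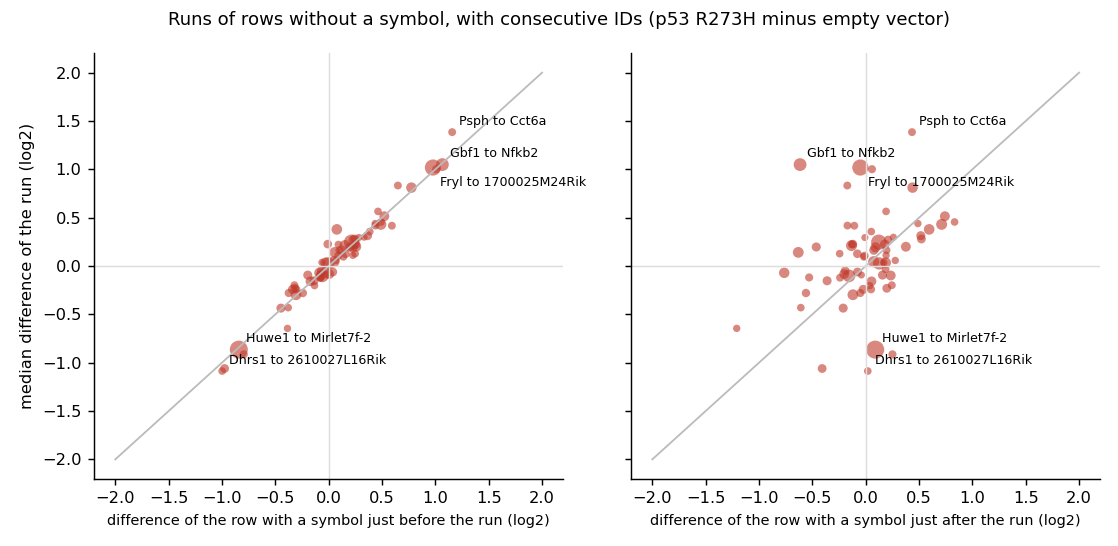
Median difference (log2) of each of the 69 runs with consecutive IDs against the difference of the symbol row just before it (left) and just after it (right), with larger points for longer runs and a line of equality. Points follow the line on the left (r = 0.98) and scatter on the right (r = 0.32).

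The 22 runs whose IDs advanced by more than 1 (285 rows) were dimmer, with run medians from 1.79 to 6.41. One of them stood apart. Between 2610044O15Rik, the last symbol row before it on chromosome 8, and Alkbh8 on chromosome 9, a tRNA-modifying dioxygenase, all 11 rows were lower in every p53 R273H array than in any empty vector array, and 10 of the 11 fell. Of all rows, 15.8% were lower without overlap. Their array medians were 3.71, 3.26 and 4.12 in p53 R273H and 5.88, 6.03 and 5.83 in empty vector cells, with a median difference of −2.01. Row 17514352 read 3.18, 2.47 and 3.70 in p53 R273H and 5.88, 6.19 and 6.13 in empty vector cells and fell by 2.95, one of the 10 largest falls with rows 17514340 and 17514330 of the same run. The symbol rows on either side differed by −0.36 and −0.22 and did not pass.

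Row by row inside the consecutive runs, differences correlated with the row before at r = 0.82 (n = 1122) and with the row after at r = 0.16 (n = 754), where the row and its neighbour were above 4.53. The 6887 interspersed rows outside these runs had a median level of 3.55, 133 rises and 256 falls (5.65% called). Under the same rule their differences correlated with the row before at r = 0.34 (n = 1276) and with the row after at r = 0.16 (n = 1236). Rows of 1 run share their neighbours, levels were higher inside the runs, and the gap between these correlations was not tested.

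By chromosome, calls of interspersed rows were uneven on 5, 19, X and 15, beside 6.98% rises and 7.75% falls over all rows. On chromosome 5, 95 of 474 rows rose and 7 fell, and of 1445 symbol rows 494 rose and 44 fell. Rows above 4.53 had a median difference of 0.45 there, against 0.46 for symbol rows. Without the consecutive runs the median was 0.08 over 113 rows, with 19 rises and 7 falls. On chromosome 19, 45 of 221 rows rose and 2 fell, against 110 and 48 of 795 symbol rows. Above 4.53 and without the runs, 6 rose and 2 fell.

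On X, 7 of 422 rows rose and 68 fell, and of 1103 symbol rows 24 rose and 199 fell. The median above 4.53 was −0.75, against −0.30 for symbol rows, and −0.16 over 40 rows without the runs, 3 of which fell. On chromosome 15, 1 of 209 rows rose and 26 fell, against 25 and 300 of 921 symbol rows. The median above 4.53 was −0.23, against −0.40 for symbol rows, and −0.20 without the runs, with 15 falls and no rise.

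Some rows repeated others. In all, 888 symbol-less rows held exactly the same 6 values as another row, in 424 sets of up to 16 rows. This applied to 32.2% of the trailing block and 2.42% of the interspersed rows, and 29 sets paired a trailing with an interspersed row. Symbol-less rows therefore hold 13844 distinct profiles. In 23 sets the partner carried a symbol, which covers 34 rows. Among these, row 17316737 held the values of Odf1, a sperm tail protein, at 12.54, 12.52 and 12.57 in p53 R273H and 12.72, 12.69 and 12.71 in empty vector cells. It was lower on every p53 R273H array but did not pass (limma adjusted p = 0.299). Row 17407244 held those of Rps27, a ribosomal protein, with means of 7.43 in p53 R273H and 7.45 in empty vector cells.

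Partners included 11 microRNA genes, of which 8 matched a mature sequence in RefSeq (GRCm38.p6). The mature sequences of 4 are shown, with the seed (bases 2 to 8) in capitals. The link from a symbol-less row to each of these genes is the identical values alone. The first pair share a seed, and their genes lie at chrX:151913229-151913250 and chrX:151912353-151912374, plus strand, for the mature products.
mmu-miR-98-5p: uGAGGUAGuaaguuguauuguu
mmu-let-7f-5p: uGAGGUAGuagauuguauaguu
mmu-miR-335-5p: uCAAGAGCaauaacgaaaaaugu
mmu-miR-1195: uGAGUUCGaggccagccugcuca
Which part of each gene the probes match is not given, so these are the products of the partner gene and not the probe sequences.

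None of the rows that shared values with these 4 microRNA genes passed the test. Row 17538849, with the values of Mir98, read 2.85, 3.15 and 3.38 in p53 R273H and 3.47, 4.01 and 4.57 in empty vector cells. Every p53 R273H array was lower, by 0.89 on average (limma adjusted p = 0.0968), at levels in the dim part of the table. Row 17538847, with the values of Mirlet7f-2, averaged 2.07 in p53 R273H and 1.98 in empty vector cells, also dim. Both follow the run after Huwe1, in which 62 of 78 rows fell. Row 17550198, with those of Mir335, averaged 3.67 in p53 R273H and 4.29 in empty vector cells. Rows 17549206 and 17550080 shared the brighter values of Mir1195, at 8.31, 8.51 and 8.15 in p53 R273H and 8.71, 8.59 and 8.70 in empty vector cells. The groups did not overlap, with a difference of −0.34.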

How the data were processed

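The authors deposited log2 values for 41345 transcript clusters on 6 arrays of biotin-labelled total RNA (Affymetrix whole-transcript kit, per the labels). How they were background-corrected, summarized and normalized is not given in the labels or headers used here. The authors' comparison table gives, per the file headers, for each row a ratio, a signed fold score, the p-value and its step-up form. Taking log2 of the deposited ratio gave the difference between group means to within 6.64e-05. The tables were joined by transcript ID. No row was filtered. Detection calls and depth are unknown for these arrays, and 6 arrays limit the precision.

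All rows were fitted with limma 3.58.1 (R 4.3.3, lmFit and eBayes, two-sided, no covariates) as p53 R273H minus empty vector, with Benjamini-Hochberg adjustment over all rows and a threshold of 0.05. A difference is in log2 units and its error is the SE of the fit. The fit was also run on simulated data with independent noise and few changed rows. Those settings are unlike the correlated runs and repeated rows here, so that run is no test of the calls reported. A pathway entry and identical values were read from the deposited tables with Python 3.11.15 and pandas 2.3.3.

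Rows are named where they were among the 10 largest rises or falls that passed without overlap, or the 5 brightest. The planned descriptions by annotation class, table coordinates and chromosome column could not be made, since these cells are blank. ID order, runs, flanking symbols and identical rows were used instead and chosen after the files were seen, as were the rows named in those paragraphs. A chromosome was taken from flanking rows matched to RefSeq (GRCm38.p6) by transcript identifier or, failing that, by symbol. The members and lists were chosen with earlier results of these data known.

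The labels do not say that a replicate number marks a shared day or passage, so no block was used in the fit reported. As a separate check, replicates with the same number did not deviate together (r = −0.036, 0.008 and 0.015). Alternatives covered normalization, dim rows, variance model, replicate block, rows tested and leaving out each array.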

Additional observations from a re-analysis of the deposited data

How the results depend on the processing

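The main fit gave 430 rises and 733 falls. With no moderation of the variance the totals were 277 and 410, the same as in the authors' deposited comparison. They were 148 and 305 with the fit on symbol-less rows alone. With the replicate number as a block they were 296 and 592, though the numbers did not pair the arrays. Of the rows called in the main fit, 626 were still called with no moderation, 453 with symbol-less rows alone and 746 with the block. Totals exceeded those of the main fit with a trended and robust variance (581 and 906), as did rises with rows above the 50th percentile of level (542, with 724 falls). At 2-fold or more, 143 rises and 347 falls became 84 and 198 with no moderation and 133 and 328 with the block. With the leading block left out (chosen after seeing the data), 487 rows fell, 181 of them at least 2-fold, and fewer rows were tested there. Leaving out each array in turn gave 275 to 331 rises (275 without empty vector replicate 2, 280 without empty vector replicate 1) and 505 to 608 falls, and 124 to 140 and 278 to 356 at 2-fold. Of 372 values of named rows under the alternatives, 7 changed sign, in rows among the brightest that never passed. They were −0.0546 for 17550598 and 0.0141 for 17550552 under quantile normalization, and 0.0300 for 17550552 and 0.00619 for 17551163 with array medians subtracted. Leaving out 1 array gave −0.0146 to 0.00155 for 17550552, −0.0619 to 0.0104 for 17551163 and −0.00425 to 0.0657 for 17511316. Another 21 lost the call, all in rows 17448759, 17448757 and 17359952, with no moderation, with symbol-less rows alone or without 1 array. Leaving out array controls was not run, since the table marks none. Without detection calls, a dim row's level has no known floor.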

Other observations

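Within the leading block, neighbouring rows resembled each other. Differences of rows 1 apart in order correlated at r = 0.225 (n = 5332 pairs) and of rows 100 apart at r = 0.071 (n = 5233). In successive windows of 500 rows, the median difference was −0.28, −0.25 and −0.27 in the 3 windows spanning 17202027 to 17205075, which held 54, 50 and 52 falls and 1, 9 and 5 rises. It was 0.05 in the window 17209163 to 17210171, with 6 falls and 9 rises. Beside these counts per 500 rows, 7.75% of all rows fell and 6.98% rose. In the window that starts at 17202027 the array medians were 3.83, 3.72 and 3.88 in p53 R273H cells and 4.14, 4.34 and 4.29 in empty vector cells. The deposited table does not say what these rows measure.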
